A study of Arabidopsis thaliana with 4 samples.

Results

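TET9 (AT4G30430) and TET12 (AT5G23030) are 2 of the 17 tetraspanin genes of *Arabidopsis thaliana*. They were chosen by the measured difference between the groups, in which TET9 went up and TET12 down. Each is read by the 1 probe set, an Affymetrix group of short oligonucleotides scored as a single signal, that the platform annotation assigns to that gene alone. They are 2 of 13286 genes with such a probe set and 2 of 15 tetraspanin genes so measured. The differences of TET9 and TET12 between the groups are therefore described without a test. The other 13 measured tetraspanins were tested, but they are what remained once these 2 were set aside for their differences.

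RNA came from whole Col-0 seedlings of 2 transgenic lines. The RKD4-induced line carried UAS-RKD4 together with 35S-GVG, and the control line carried 35S-GVG alone. GVG is an artificial activator that dexamethasone switches on, here expressed from the broadly active 35S promoter, and it drives genes placed behind UAS. RKD4 is a transcription factor of the RWP-RK family with a role in the early embryo. Seedlings of both lines were moved to 1 µM dexamethasone on day 2 after germination, and were collected on day 3 after 24 h of treatment. Each group held 2 arrays, each from its own pool of 60 seedlings, and the question was which transcripts differ once RKD4 is induced. No untreated array is among the samples, so a difference between the lines that was there before induction cannot be told apart from one that followed it. The labels do not say how many independent transformants the lines represent.

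Tetraspanins are small membrane proteins that span the membrane several times and expose a large loop outside the cell. They bind each other and other membrane proteins and gather them into patches. In plants TET1, also called TORNADO2, is needed for leaf and root patterning, TET8 and TET9 have been found on extracellular vesicles, and TET11 and TET12 have been located in sperm cells. As background, RKD genes are known from egg cells and early embryos, whereas the tissue here was the whole seedling.

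Median signals were 175.4 on both RKD4-induced arrays and 185.1 and 180.4 on the control arrays, and with so few arrays every value below is imprecise. The seedling label was checked against 5 green-tissue genes, of which 4 were measured. The Rubisco activase gene RCA read 36232 and 31622 in RKD4-induced seedlings, against 33746 and 41794 in control seedlings, and the groups overlapped. The light-harvesting gene LHCB4.1 (-0.13 ± 0.13) and the photosystem gene PSAN (-0.27 ± 0.12) lay lower on both induced arrays without passing the limma test described below. PORB, a protochlorophyllide oxidoreductase, fell (-0.54 ± 0.11, adjusted p = 0.0202, limma). Thus 1 of the 4 passed lower, against 10.4% of all genes, and 3 of the 4 lay lower without overlap, against 35.8% of all genes. Whether the PORB call held with an array left out was not examined. The part of green tissue in the TET9 and TET12 differences was not tested. RKD4 has 0 probe sets assigned to it alone in the annotation used, so its induction could not be checked here. Differences below are log2(signal + 32.4) of RKD4-induced minus control seedlings, given ± SE (n = 2 arrays in each group). The added 32.4, the 25th percentile of all values, damps the noise of weak signals and understates the change of weak genes.

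TET9 was weak in control seedlings and clearly above that level on both induced arrays. Its signal was 271 and 246 in RKD4-induced seedlings (replicates 1 and 2), against 16.8 and 31.0 in control seedlings. Both control values lay under the pseudocount of 32.4, so the control level is known only as low. The means were 259 ± 17.6 and 23.9 ± 10.1 (SD, n = 2 each), a ratio of 10.8 on the linear scale. The log2 difference was 2.38 ± 0.20, and the 4 array-by-array differences lay between 2.13 and 2.62. The groups did not overlap, and the gap between replicates was 0.12 in the induced and 0.37 in the control group on the same log2 scale.

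TET12 showed the mirror image. Its signal was 3.59 and 18.4 in RKD4-induced seedlings, against 133 and 90.4 in control seedlings. Here the induced arrays lay under the pseudocount, and the control arrays stood above it. The means were 11.0 ± 10.4 in induced and 112 ± 29.98 in control seedlings (SD, n = 2 each), with control 10.2 times induced on the linear scale. The log2 difference was -1.74 ± 0.25, with array-by-array values from -2.20 to -1.27. For both genes the linear ratio divides by a group whose signals all lie under the pseudocount, so its size is uncertain and the ratios of the 2 genes are not compared. Replicates were further apart than for TET9, by 0.50 in the induced and 0.43 in the control group on the log2 scale. Whether fewer cells carried a transcript or each cell held less of it cannot be told apart in RNA from whole seedlings.

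**Figure D1:**
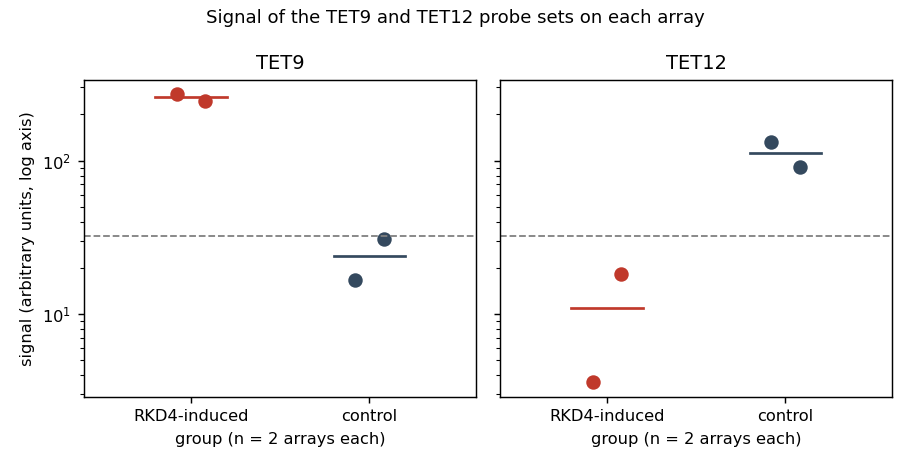
Signal of the TET9 (left) and TET12 (right) probe sets on each array, on a log axis, with RKD4-induced arrays left of control arrays. Points are single arrays, bars the mean of 2, and the dashed line the pseudocount of 32.4. TET9 reads 246 to 271 on induced arrays and 16.8 to 31.0 on control arrays, and TET12 3.59 to 18.4 on induced and 90.4 to 133 on control arrays.

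Among all 22746 probe sets tested, the difference of TET9 ranked 145 from the largest rise and that of TET12 ranked 65 from the largest fall. Counting each gene once, the ranks were 97 and 26 of 13286. With a pseudocount of 1 the ranks among probe sets were 130 for TET9 and 19 for TET12. Both crossed the pseudocount between the groups. Of 4878 probe sets with both control signals under 32.4, 224 had both induced signals above it, and 49, TET9 included, reached at least 246 on both. In the other direction, of 13788 probe sets with both control signals at or above the lower TET12 value of 90.4, 13, TET12 included, read under 32.4 on both induced arrays. These ranks and counts describe the contrast by which the genes were chosen and are no test of it.

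**Figure D2:**
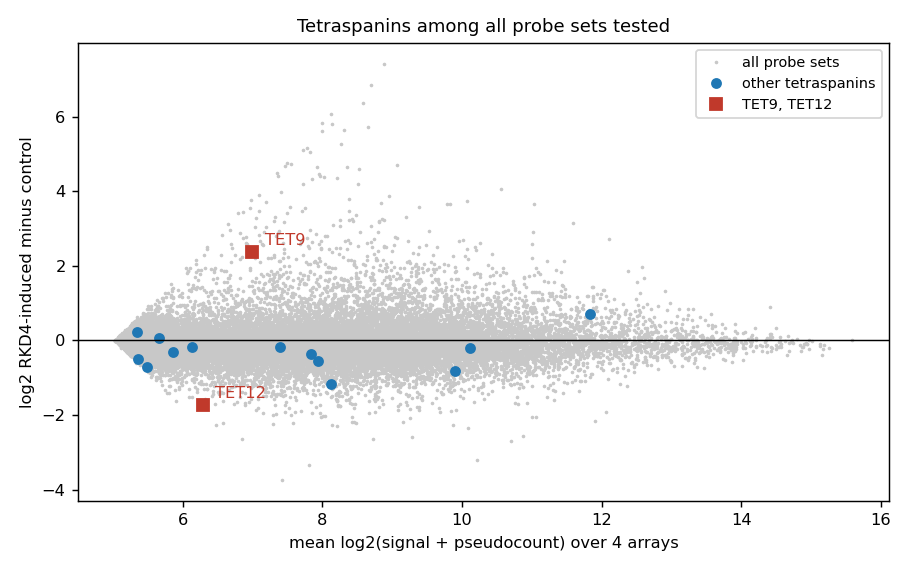
Difference between the groups (log2 RKD4-induced minus control, vertical) against mean log2(signal + 32.4) over the 4 arrays (horizontal) for 22746 probe sets. Grey dots are all probe sets, blue points the other 13 tetraspanins and red squares TET9 at 2.38 and TET12 at -1.74.

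The other 13 measured tetraspanins showed no common rise. In limma with Benjamini-Hochberg adjustment over all probe sets, 2 of the 13 fell, TET7 and TET10, and 0 rose. At an unadjusted p under 0.05 the same fit gave 5 lower and 1 higher, against 19.3% lower and 14.0% higher of all genes. Of all 13286 genes 20.0% passed, 9.60% higher and 10.4% lower, so 2 falls among 13 genes is close to the background. The median difference of the 13 was -0.30, against -0.071 over all genes. Groups did not overlap for 8 of the 13, against 59.2% of all genes, with 7 lower (35.8% of all genes) and 1 higher (23.4%). On the log2(signal + 32.4) scale no family gene other than TET9 exceeded 0.72, and none other than TET12 lay under -1.17. TET9 and TET12 were set aside for their differences, so these bounds and the counts above describe the rest of the family only. On the linear scale, control was 10.5 times induced for TET15, against 10.2 times for TET12, again over induced signals under the pseudocount, so the place of TET12 at the low end depends on the scale. TET1 and TET17 have no probe set assigned to them alone and were not analysed here.

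**Figure D3:**
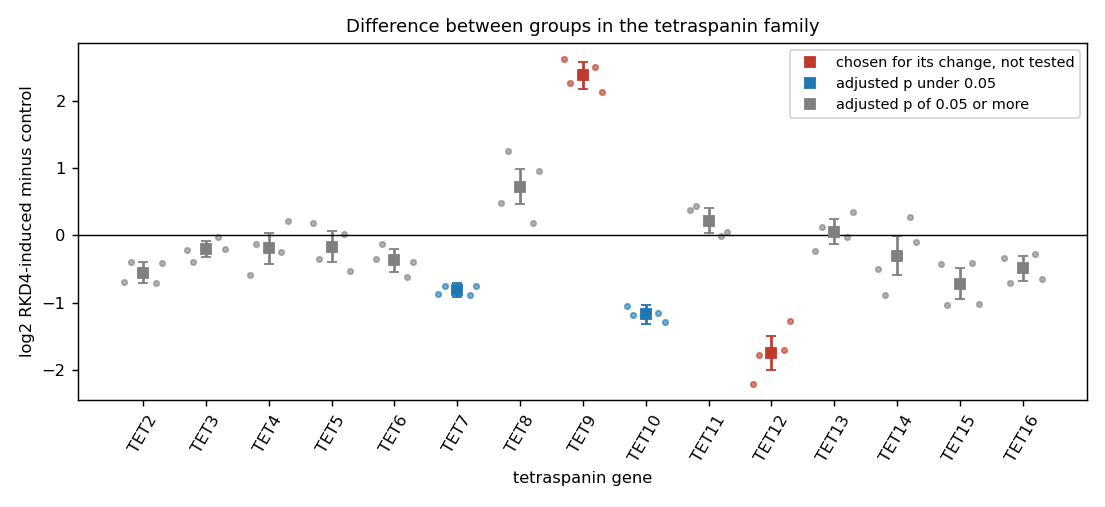
Difference between the groups (log2 RKD4-induced minus control, vertical) for 15 tetraspanin genes (horizontal). Squares are group differences with their SE and small points the 4 array-by-array differences; red genes were chosen for their change and not tested, blue genes passed an adjusted p of 0.05 in limma. TET9 stands highest at 2.38 and TET12 lowest at -1.74, and of the tested genes TET7 and TET10 passed, both lower.

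TET8, found like TET9 on extracellular vesicles, was far above the pseudocount on every array. Its signal was 5144 and 4156 in RKD4-induced seedlings, against 3674 and 2129 in control seedlings. Both induced arrays lay above both control arrays, but the control arrays were far apart. The difference of 0.72 ± 0.26 did not pass (adjusted p = 0.0990, limma). The call turned on control replicate 1, the higher of that pair. Without it the difference was 1.11 with an adjusted p of 0.0337, and without control replicate 2 it was 0.33, with adjusted p from 0.0337 to 0.360 as single arrays were left out. With the dimmest probe sets left out of the fit it passed at an adjusted p of 0.0241 in limma. With the replicate number as a block it passed at 0.00351.

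TET11, placed in sperm cells like TET12, read under the pseudocount on every array. Its signal was 17.7 and 5.90 in RKD4-induced seedlings, against 6.04 and 4.58 in control seedlings. The groups overlapped, and a difference of 0.22 ± 0.18 did not pass (adjusted p = 0.454, limma). From this signal a fall in TET11 could not be seen, and its probe set says nothing on whether TET11 went the way of TET12. Its induced signals stayed under the pseudocount, so a rise of the size read for TET9 was not seen.

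TET10 and TET7 were the tested tetraspanins that fell. TET10 read 162 and 147 in RKD4-induced seedlings, against 368 and 408 in control seedlings. All 4 values lay well above the pseudocount and the groups stood apart, with a difference of -1.17 ± 0.14 and an adjusted p of 0.00338 in limma. TET7 read 689 and 686 in RKD4-induced seedlings, against 1286 and 1176 in control seedlings. Its difference was -0.81 ± 0.10 with an adjusted p of 0.00379 in limma. Both kept their call when any single array was left out, with adjusted p of at most 0.0375 for TET10 and 0.0383 for TET7 in limma.

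TET2, TET6, TET5 and TET3, all above the pseudocount on every array, did not pass. TET2 read 172 and 170 in RKD4-induced seedlings, against 297 and 237 in control seedlings, and lay just outside the threshold (-0.55 ± 0.16, adjusted p = 0.0587, limma). It passed with a pseudocount of 1 (adjusted p = 0.0493, limma), without the dimmest probe sets (0.0204) and with the replicate number as a block (0.04). TET6 and TET5, which together restrain cell division in roots and leaves, differed by -0.37 ± 0.17 and -0.17 ± 0.23. TET6 stood lower on both induced arrays, at 187 and 150 against 247 and 208 in control seedlings. The TET5 groups overlapped, at 136 and 117 in induced and 115 and 182 in control seedlings. TET3 read 937 and 1075 in RKD4-induced seedlings, against 1087 and 1236 in control seedlings, a difference of -0.20 ± 0.12.

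TET15 and TET16 lay lower on both induced arrays than on both control arrays, at signals near the floor. TET15 read 2.43 and 2.61 in RKD4-induced seedlings, against 14.1 and 38.9 in control seedlings. Its difference of -0.72 ± 0.23 did not pass (adjusted p = 0.0731, limma), but a pseudocount at the 10th percentile gave -1.88 (0.0447) and a pseudocount of 1 gave -2.80 (0.0391). The difference of -0.72 passed with the replicate number as a block (0.0369). Without control replicate 1 it was -1.03 (0.0350). TET16 read 1.39 and 2.81 in RKD4-induced seedlings, against 10.3 and 22.7 in control seedlings, all under the pseudocount, and did not pass (-0.49 ± 0.18, adjusted p = 0.103, limma). With a pseudocount of 1 its difference was -2.44.

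TET13, which acts in lateral root initiation, TET14 and TET4 overlapped between the groups. Their differences were 0.0578 ± 0.19, -0.30 ± 0.29 and -0.19 ± 0.23. TET13 read 15.5 and 23.1 in induced seedlings, against 23.8 and 11.3 in control seedlings. TET14 read 7.65 and 36.1 in induced seedlings, against 24.3 and 41.3 in control seedlings. TET4 read 25.8 and 41.4 in induced seedlings, against 55.2 and 31.1 in control seedlings. At these weak signals the replicates of a group differed as much as the groups did.

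**Figure D4:**
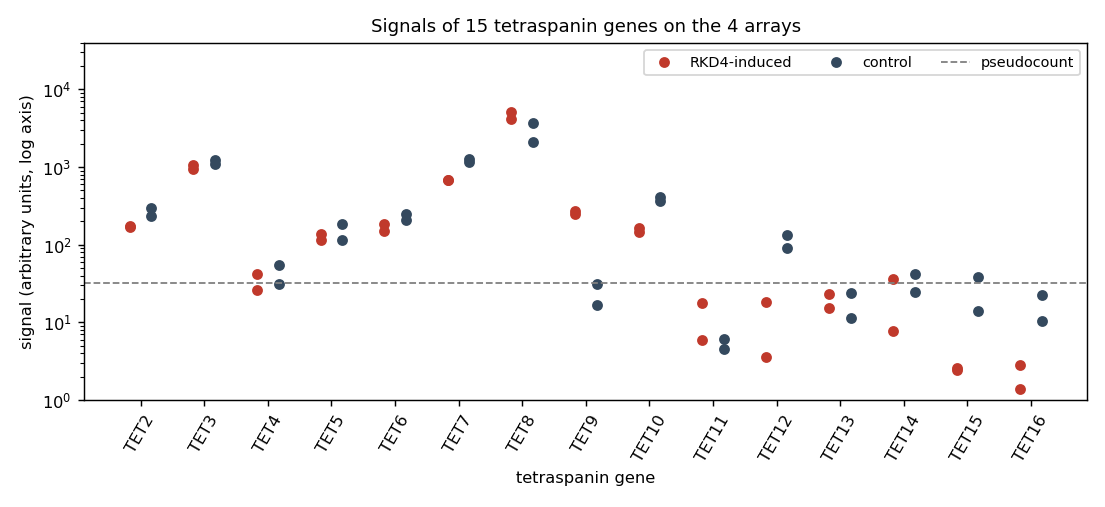
Signals of 15 tetraspanin genes on single arrays, on a log axis, with RKD4-induced arrays (red) left of control arrays (dark) for each gene and the pseudocount of 32.4 dashed. TET9 and TET12 cross the dashed line between the groups in opposite directions, while TET11, TET13 and TET16 stay under it on every array and TET8 reads 2129 or more on every array.

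The genes beside TET9 on its chromosome could be read in part. Of the 5 protein-coding genes on each side, 6 had a probe set of their own. AT4G30450 and AT4G30460, separated from TET9 by the unmeasured gene GAE1, fell. AT4G30460 read 111 and 153 in RKD4-induced seedlings, against 709 and 726 in control seedlings, a difference of -2.20 ± 0.16 with an adjusted p of 0.000705 in limma. AT4G30450 read 116 and 180 in RKD4-induced seedlings, against 362 and 362 in control seedlings, a difference of -1.15 ± 0.20 with an adjusted p of 0.0113. Its call was lost in 3 of 4 fits with an array left out (without induced replicate 1 at -0.89, and without either control array, with adjusted p up to 0.0744 in limma). The next gene outward, AT4G30470 (-0.34 ± 0.17), did not pass. On the other side AT4G30400 (-0.25 ± 0.19), AT4G30390 (-0.23 ± 0.21) and AT4G30380 (0.0359 ± 0.15) did not pass either, and AT4G30380 read under the pseudocount on every array. Of the 6 measured neighbours 0 rose and 2 fell, against 9.60% and 10.4% of all genes. At an unadjusted p under 0.05 the 6 gave the same counts, against 14.0% higher and 19.3% lower of all genes. So few genes say nothing about the neighbourhood as such.

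Beside TET12, 3 of the 10 nearest genes had a probe set of their own, and 0 passed in limma, against 20.0% of all genes. At an unadjusted p under 0.05 the count was 1 lower, against 19.3% of all genes. CaS, a calcium sensing protein of chloroplasts, read 4153 and 4621 in RKD4-induced seedlings, against 5343 and 5530 in control seedlings, and did not pass (-0.31 ± 0.11, adjusted p = 0.0881, limma). The carboxypeptidase-like gene scpl47 (-0.0976 ± 0.17) and AT5G22990 (-0.17 ± 0.24) read under the pseudocount on every array. The genes directly on either side of TET12 (IMS2, MAM1, AT5G23035 and CDF1) have no probe set of their own here.

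**Figure D5:**
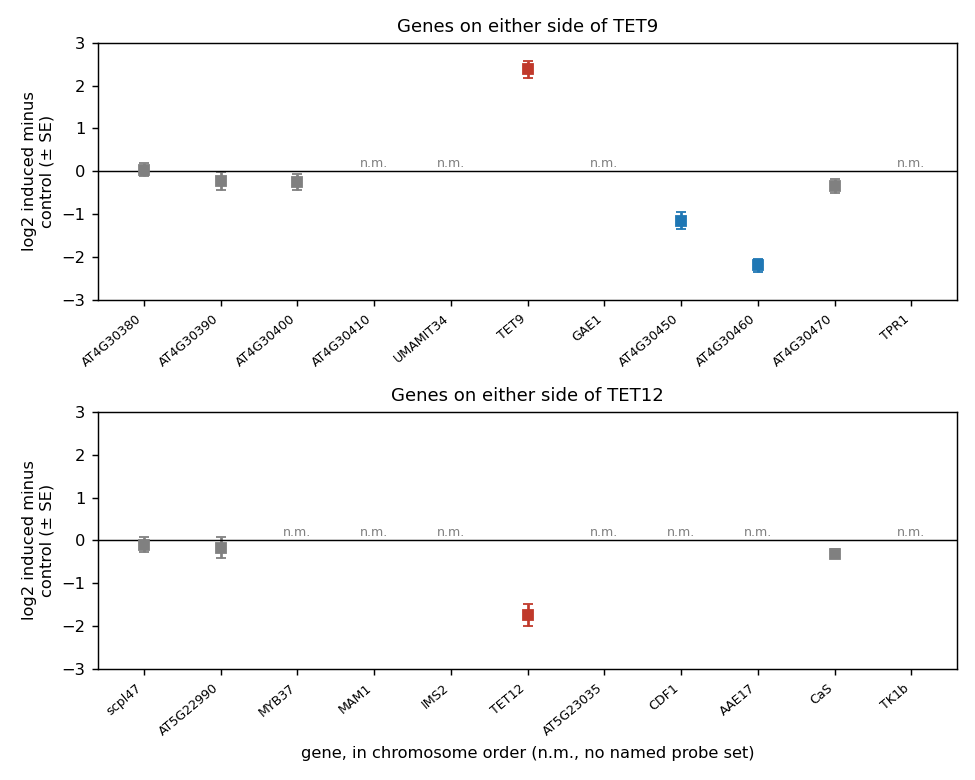
Difference between the groups (log2 RKD4-induced minus control ± SE, vertical) for TET9 (top) and TET12 (bottom) and the 5 protein-coding genes on each side in chromosome order (horizontal). Red squares are TET9 and TET12, blue squares passed an adjusted p of 0.05 in limma, grey did not, and n.m. marks genes with no probe set of their own. TET9 at 2.38 stands close to AT4G30450 at -1.15 and AT4G30460 at -2.20.

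The genes closest to TET9 in pattern were found by the root mean square distance between log2 values, each centred on its own mean over the 4 arrays. They were AT5G65530, AT4G27900, AT3G01860, AT5G48650 and AT5G40520, at distances between 0.0487 and 0.0831. AT5G65530, the nearest, read 1039 and 947 in RKD4-induced seedlings, against 145 and 176 in control seedlings. The differences of the 5 lay between 2.29 and 2.52, and their control signals, from 57.2 up to 343, all lay above the pseudocount, unlike those of TET9. The genes closest to TET12 were PUB19, AT1G14120, AT3G32030, UGT84A1 and AT3G17640, at distances between 0.110 and 0.153. PUB19, a ubiquitin ligase, read 1.31 and 15.3 in RKD4-induced seedlings, against 106 and 64.0 in control seedlings. Like TET12, PUB19 was under the pseudocount on the induced arrays only. UGT84A1, a glucosyltransferase, read 90.0 and 102 in RKD4-induced seedlings, against 412 and 337 in control seedlings. With 4 arrays in 2 groups, this likeness mostly ranks genes by the size of their difference. No tetraspanin was among the 10, which the smaller differences of the other 13 (-1.17 to 0.72) already fixed.

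Other genes linked to the places where TET9 and TET12 act could be read only in part. Of 16 genes for proteins found with extracellular vesicles or their secretion, 3 were measured and 0 passed in limma, also at an unadjusted p under 0.05. With 20.0% of all genes passing, a count of 0 among 3 is no result about these genes. ARA6, an endosomal Rab GTPase, read 1220 and 1484 in RKD4-induced seedlings, against 1357 and 1244 in control seedlings (0.0494 ± 0.13). AT3G58510 (-0.16 ± 0.17) and AT2G42520 (-0.0834 ± 0.15) overlapped between the groups as well. The tetraspanin relative TOM2A and TRN1, the partner of TET1, have no probe set of their own here.

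Gamete markers could be read through few genes. Of 5 egg cell genes 2 were measured, and their summed signal was 2133 to 2403 in RKD4-induced seedlings and 3.71 to 20.3 in control seedlings. EC1.5, which encodes a small protein secreted by the egg cell, carried this sum at 2402 and 2106 in induced seedlings, against 1.296 and 1.622 in control seedlings (6.07 ± 0.14, adjusted p = 3.34e-05, limma). EC1.2 read under the pseudocount on every array (0.0685 ± 0.32). Of 6 sperm and pollen genes only MGH3, a histone H3 of the male gamete, was measured. It read 3.61 and 2.88 in RKD4-induced seedlings, against 28.8 and 2.12 in control seedlings, under the pseudocount throughout (-0.37 ± 0.28). Of these 2 egg cell genes only EC1.5 passed higher, where 9.60% of all genes did. A count of 1 among 2 is no result about egg cell genes, and a link between them and TET9 was not tested. MGH3 alone, at signals near the floor, says nothing about sperm genes as a group, and a link between them and TET12 was not tested.

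Markers of other tissues differed between the groups as well. Of 5 root genes 3 were measured and 2 fell, where 10.4% of all genes did. These were the root hair expansins EXPA7 (-0.83 ± 0.15, adjusted p = 0.0126, limma) and EXPA18 (-0.71 ± 0.15, adjusted p = 0.0205), and JKD, a ground tissue regulator, lay at -0.00347 ± 0.19. The summed signal of these genes was 888 to 938 in RKD4-induced and 1361 to 1763 in control seedlings. PAP85, the 1 seed storage gene measured of 5, read 1.55 and 13.2 in RKD4-induced seedlings, against 64.8 and 35.6 in control seedlings (-1.05 ± 0.25, adjusted p = 0.0311, limma). BBM, a regulator of embryo identity and the 1 measured embryo gene of 6, read 89.0 and 67.4 in RKD4-induced seedlings, against 39.8 and 26.9 in control seedlings (0.75 ± 0.21, adjusted p = 0.0483, limma). With single arrays left out, BBM lost its call in 4 of 4 fits (adjusted p up to 0.206 in limma), and PAP85 (0.170), EXPA7 (0.0855) and EXPA18 (0.120) kept theirs in 1 of 4, without control replicate 2. BBM and PAP85 were each the only measured gene of their list, where 9.60% of all genes passed higher and 10.4% lower. The part of these cell types in the TET9 and TET12 differences was not tested.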

How the data were processed

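The authors deposited a linear intensity for each probe set, made with GCOS, Affymetrix's software, per the submitters' processing notes. Its version, its settings and a genome build are not given in the sources used. RNA was labelled with biotin for 3' expression arrays, per the labels' protocols. The 2% trimmed mean was 500.05 on every array, so the deposited scaling was kept. After 64 control probe sets were left out of 22810, 22746 were tested as log2(signal + 32.4) in limma 3.58.1 (R 4.3.3), with a variance trend, 2 residual degrees of freedom, 4.12 added by moderation, and Benjamini-Hochberg adjustment at 0.05. The smallest p of an exact 2-against-2 permutation test is 0.333, so none was run. Arrays of a group are labelled biological replicates, with no word on separate cultures, so a p-value reflects only how far these pools differ, which may be technical. Names come from the platform annotation, joined on gene identifiers with the TAIR10.1 table, in which 13436 of 13513 probe sets with 1 gene matched. The probe set of highest mean represents a gene, and every tetraspanin measured has 1. Simulated data had this comparison's 22746 probe sets, normal noise of the fitted size, and rises only, added on the log2(signal + 32.4) scale. In them the fit recovered 87 of 100 changes of 2-fold and 100 of 100 of 4-fold, and made 15 false calls. Far fewer probe sets were changed there than the 4954 called in the data. The adjusted threshold therefore fell elsewhere, and the counts do not give the error rates of this comparison. Nor do they carry over to linear ratios of weak genes, which that scale damps.

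Genes named are TET9, TET12, measured genes of the tetraspanin, vesicle and gamete lists, measured neighbours, and the 5 nearest patterns of each; tissue markers were added. The members and lists were chosen with earlier results of these data known. Alternatives were quantile and median scaling, pseudocounts of 1 and at the 10th percentile, removal of probe sets under the 30th percentile by mean, a fit without the variance trend, one with the replicate number as a block, and fits without each array. Protein features were not analysed here.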

Additional observations from a re-analysis of the deposited data

How the results depend on the processing

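TET9 and TET12, chosen for their directions, had log2 differences of 3.21 and -2.97 with a pseudocount at the 10th percentile and 3.44 and -3.55 with a pseudocount of 1; with single arrays left out they lay between 2.20 and 2.56 and between -1.98 and -1.49. The pseudocount sets these sizes because each gene is under it in 1 group. The count of changed probe sets, 4954 (2281 higher, 2673 lower), was 1835 to 2223 (1083 to 1328 higher, 752 to 899 lower) with an array left out, where fewer residual degrees of freedom remain and a single array takes its spread from the other group. Falls outnumbered rises in the reported fit, but with median centring 2578 probe sets passed higher and 2283 lower. With quantile normalization the counts were 2383 higher and 2422 lower. Of the 13 other tetraspanins, 2 passed, both lower, where 21.8% of all probe sets did. With a pseudocount of 1, 4 passed (4 lower), where 23.1% of all did; with the filter on dim probe sets 4 of 7 tested passed (1 higher, TET8), where 39.3% of all did; and 2 to 4 passed with an array left out (0 to 1 higher, 2 to 3 lower), where 8.07% to 9.77% of all did. The replicate block gave 5 (1 higher, TET8, and 4 lower, TET2, TET7, TET10 and TET15), where 27.7% of all passed. The labels do not say that a number marks a shared day or batch, and deviations of same-numbered arrays correlated at 0.0807, so no pairing was assumed. Of the 9 measured neighbouring genes of TET9 and TET12 together 2 passed, both lower, where 10.4% of all genes passed lower. Most settings for neighbours, and all for the marker genes followed under them, were added after seeing the data. The green-tissue genes were not followed under other settings. With single arrays left out, genes that did not pass and whose direction turned ranged from -0.42 to 0.0442 for TET4, -0.44 to 0.11 for TET5, -0.12 to 0.24 for TET13, -0.69 to 0.0848 for TET14, -0.0475 to 0.12 for AT4G30380, -0.50 to 0.0469 for AT4G30390, -0.21 to 0.0167 for scpl47, -0.49 to 0.14 for AT5G22990, -0.0882 to 0.19 for ARA6, -0.40 to 0.0782 for AT3G58510, -0.26 to 0.0896 for AT2G42520, -0.35 to 0.48 for EC1.2 (-0.20 with a pseudocount of 1), -0.15 to 0.14 for JKD (0.0831 with quantile normalization, 0.0461 with median centring) and -0.78 to 0.0464 for MGH3. With pseudocounts at the 10th percentile and of 1 BBM lay at 1.12 and 1.22 and did not pass (adjusted p 0.0612 and 0.0679); the cause was not tested. Averaging probe sets of a gene was not run, since each listed gene measured has 1. Signal limits TET11, TET13 and TET16, under the pseudocount on every array.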
